A study of Mus musculus with 24 samples.

Results

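Helix-loop-helix regulators and their oncogenic partners were followed in thymic lymphomas and normal thymus through 10 genes: the E proteins Tcf3, Tcf12 and Tcf4, the Id factors Id1, Id2 and Id3, and the Tal-Lmo group of Tal1, Lyl1, Lmo2 and Hhex. They were taken by name from the deposited tables and are 10 of the 21878 gene symbols counted. All 10 were in the count table, 8 passed the filter on low counts, and Tal1 and Hhex did not.

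E proteins are transcription factors that bind the E-box as dimers. In developing thymocytes they open antigen receptor genes for rearrangement and hold cells at the checkpoints of pre-TCR and TCR signalling. Id proteins lack the basic region that touches DNA and keep E proteins off their sites as inactive dimers. TCR signalling, through Egr factors, is a known inducer of Id3 in thymocytes. Tal1 and Lyl1 are tissue-restricted partners of E proteins, Lmo2 is a LIM-only protein that bridges them to other DNA-binding factors, and Hhex is a homeobox factor of progenitors that acts downstream of Lmo2 in mouse T-cell leukaemia. Ectopic Tal1, Lyl1 or Lmo2 in thymocytes drives T-cell leukaemia in mice and humans.

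RNA was sequenced from 21 thymic lymphomas and 3 normal thymus samples taken from B6C3F1 females, hybrids of inbred strains. Every label, on thymus as well, names the same exposure: carbon ions to the whole body at 1.6 Gy a week, 4 times, from an age of 4 to 5 weeks. Thymus titles also bear the mark 7W, which the labels leave unexplained. Column names of the authors' tables put 11 lymphomas in the Ikzf1-mutated set and 10 in the Ikzf1-unmutated set, where Ikzf1 encodes Ikaros, a tumour suppressor of lymphocytes. Material was a suspension of lymphoma cells or of thymocytes, and whether each sample came from its own animal is not stated. P-values then reflect only how much these samples vary, which may be technical. Library totals were 15 to 36.6 M counts in lymphomas (median 21.7 M) and 24.5 to 27.5 M in thymus. A list of 12 thymocyte identity genes, such as Cd3e and Lck, was detected in full in both groups, with summed levels of 4435 to 8671 CPM (counts scaled to the TMM-adjusted library total) in lymphomas and 10570 to 11150 CPM in thymus. Lymphomas are named by their library numbers. Id3 lies at chr4:136143497-136145755 on the plus strand, Id2 at chr12:25093799-25097140 on the minus strand and Id1 at chr2:152736251-152737410 on the plus strand (GENCODE M21, GRCm38).

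Because E proteins act through the E-box, bases before the RefSeq start of 1 gene of each class are shown, from RefSeq promoters on GRCm38.p6, left to right from 5′ to 3′ on the strand of the gene. Capitals mark matches to the E-box CANNTG. Bases inside any GENCODE M21 exon were left off. Tcf3 is at chr10:80433648-80433885 on the minus strand, Id2 at chr12:25096254-25096342 on the minus strand, and Lyl1 at chr8:84701207-84701456 on the plus strand. The Tcf3 and Lyl1 stretches lie upstream of the GENCODE genes, whereas the Id2 stretch lies inside the longer GENCODE Id2 gene, in bases that no exon covers.
Tcf3: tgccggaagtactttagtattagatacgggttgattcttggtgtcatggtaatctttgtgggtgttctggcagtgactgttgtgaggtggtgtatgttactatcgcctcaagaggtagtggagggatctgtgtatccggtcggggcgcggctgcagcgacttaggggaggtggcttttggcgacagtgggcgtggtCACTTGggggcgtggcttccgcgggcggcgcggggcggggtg
Id2: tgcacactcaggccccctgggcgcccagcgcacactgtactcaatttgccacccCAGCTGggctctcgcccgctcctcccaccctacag
Lyl1: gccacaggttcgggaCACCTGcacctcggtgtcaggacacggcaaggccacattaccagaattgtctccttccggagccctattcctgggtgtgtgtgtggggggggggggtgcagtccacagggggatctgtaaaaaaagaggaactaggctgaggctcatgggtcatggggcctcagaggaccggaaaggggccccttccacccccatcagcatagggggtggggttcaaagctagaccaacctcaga

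RefSeq promoters were used for 7 of the 10 genes, with 10 windows of 250 bases. Tcf4 was not searched, as chromosome 18 was passed over for the 10 genes, a step not taken for the count over all windows. CANNTG was found in 5 of the 10 windows and in 66.2% of 32851 windows of the same length. CAGNTG, the E-box form that E proteins prefer and a part of the first pattern, was found in 3 of the 10 windows, those of Id2, Lyl1 and the first Tcf12 start, and in 44.8% of all windows. The Egr motif GCGNGGGCG was in 0 of the 10 and in 4.7% of all, and the Ikaros core TGGGAA was in 1 of the 10, a Tal1 window, and in 21.6% of all. Both strands were searched. The Id3 window lies inside a 5′ exon of the GENCODE model and is not printed.

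Of the 8 tested genes, Id3 passed the test between lymphomas and thymus. By the quasi-likelihood test of edgeR, adjusted after Benjamini and Hochberg, 1 of the 8 was lower and 0 were higher in lymphomas, beside 30.8% of the 13121 tested genes that passed, 15.4% higher and 15.4% lower. The median log2 fold change was 0.62 over the 8 genes and 0.07 over all tested genes. Against thymus, 0 of the 8 passed in the mutated set (26% of all genes, 13.1% higher and 12.9% lower), where limma-voom called 1 and 0 had an unadjusted p under 0.05. In the unmutated set 1 of the 8 passed, again Id3 (35.4% of all genes, 18% higher and 17.3% lower). Between the mutated and unmutated sets 0 passed in edgeR, 2 had an unadjusted p under 0.05 and DESeq2 called 2, Id3 and Lyl1, beside 5.38% of all genes in edgeR, 2.43% higher and 2.95% lower in the mutated set. On the scale of log2(TPM + 1) the calls of all genes tipped: 35.6% of those for lymphomas against thymus were higher, against 50% in counts, and 76.5% of those between the sets were higher in the mutated set, against 45.2%.

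**Figure D1:**
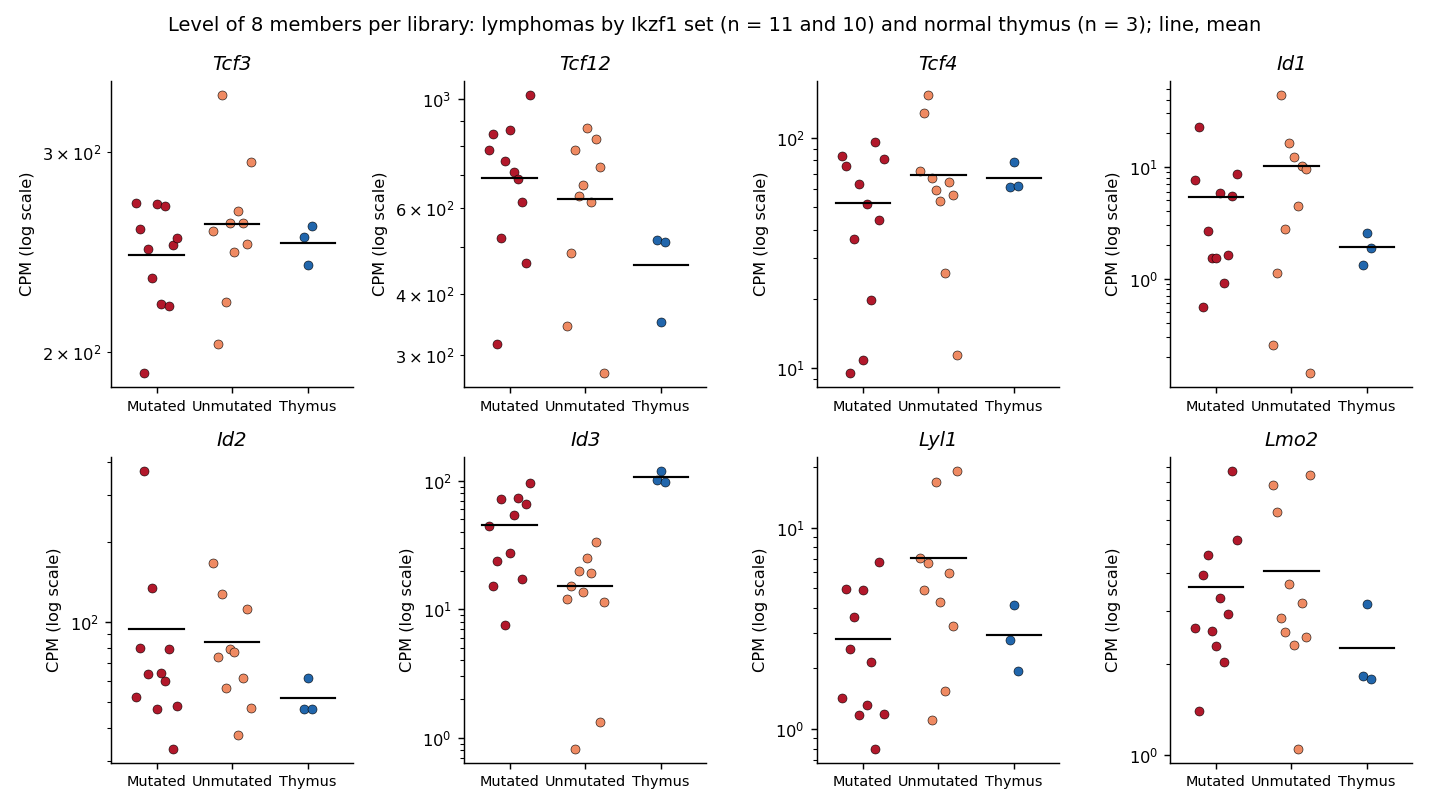
Level of 8 genes in each library, in CPM on a log axis whose range differs between panels; points are libraries, and lines are means of 11 Ikzf1-mutated lymphomas, 10 Ikzf1-unmutated lymphomas and 3 thymus samples. All 21 lymphomas lie below the thymus samples in the Id3 panel. The lymphomas spread over 308-fold in the Id1 panel, where the lowest value stands on 4 counts, and over 1.76-fold in the Tcf3 panel.

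Levels between genes are compared in TPM, which accounts for gene length. The place of a gene then depends on the length taken for it, which the sources used here do not give. GENCODE exons cover 27382 bases of Tcf4 and 1800 of Lyl1. In CPM the lymphoma means were 60.2 for Tcf4 and 4.85 for Lyl1, so the place of Tcf4 beside Lyl1 rests on length. In lymphomas the order by mean was Tcf12 at 303 ± 96.1 TPM, Id2 at 175 ± 149, Tcf3 at 151 ± 18, Id3 at 82 ± 71.2 and Id1 at 19.5 ± 25.4 TPM (SD, n = 21). Tcf4 at 6.68 TPM, Lyl1 at 6.41 TPM and Lmo2 at 4.62 TPM followed, and Tal1 and Hhex were at 0.0669 and 0.0605 TPM. Tcf12 stood above Id2 in 19 of 21 lymphomas, whereas Id2 stood above Tcf3 in 9 of 21, Tcf4 above Lyl1 in 12 of 21 and Lyl1 above Lmo2 in 11 of 21, so these neighbours cannot be ordered beyond their spread. In thymus Id3 led at 292 ± 24.9 TPM, above Tcf12 at 223 ± 51 TPM in 3 of 3 samples, then Tcf3 at 159 TPM and Id2 at 107 TPM (SD, n = 3). Tcf4 at 7.9 TPM, Id1 at 5.24 TPM, Lyl1 at 4.2 TPM and Lmo2 at 2.91 TPM came next.

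Tcf3, which encodes the E2A proteins, was the steadiest of the 10. Its CPM was 192 at the lowest, 252 at the median and 337 at the highest of the 21 lymphomas, against 252, 238 and 258 CPM in thymus samples 1, 2 and 3. The groups overlapped on both sides, with 8 lymphomas above, 7 within and 6 below the thymus range. The log2 fold change was 0.01 ± 0.11 (SE, adjusted p = 0.969, edgeR), and its sign turned in limma-voom and on the scale of log2(TPM + 1), at -0.0025 and -0.08. Lymphoma 20 held the highest value, at 337 CPM, and lymphoma 7 the lowest.

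Tcf12, which encodes HEB, the partner of E2A in thymocytes, ran from 276 over a median of 687 to 1018 CPM in lymphomas, against 515, 351 and 510 CPM in thymus. Of 21 lymphomas, 16 exceeded every thymus sample, while lymphomas 35, 7 and 18 stood apart at 276, 316 and 345 CPM. The difference of 0.52 ± 0.29 on the log2 scale did not pass (SE, adjusted p = 0.178, edgeR; 0.0875 to 0.496 over the alternatives). The mutated set averaged 689 ± 200 CPM and the unmutated set 624 ± 200 CPM (SD, n = 11 and 10), a difference of 0.14 with wide overlap.

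The lymphomas lowest in Tcf12 shared other values. Rag1, a recombinase gene that E proteins activate, was at 4.91, 31 and 33.7 CPM in lymphomas 18, 7 and 35, the lowest of the 21, where the next lowest was 492.5 CPM in lymphoma 14. Ptcra, the pre-TCR alpha chain and a direct HEB and E2A target, was at 0.0956, 0.153 and 0.25 CPM in the same libraries. It was at 0.382 CPM in lymphoma 12, with 278 CPM at the highest. Lymphoma 12, however, held 862 CPM of Tcf12 and 1936 CPM of Rag1. Thymus 2, with 351 CPM of Tcf12, held 2000 CPM of Rag1. Id1 was lowest in lymphomas 18, 7 and 35 as well, at 0.255, 0.562 and 0.143 CPM, from 8, 11 and 4 counts. Rora, a nuclear receptor gene of innate lymphoid and some T cells, was at 180, 911 and 51 CPM in lymphomas 18, 7 and 35, against 14.2, 10.6 and 10.2 CPM in thymus. High Rora was not confined to them. Lymphoma 9, with Tcf12 at 522 CPM, held 146 CPM of Rora, more than lymphoma 35. Lymphomas 10, 12, 14 and 32 were above thymus as well, at 17.5, 31.7, 18.6 and 21.6 CPM. These genes were set side by side after their values were seen.

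Tcf4 is the E protein that defines plasmacytoid dendritic cells. It ran from 9.5 over a median of 59.5 to 154 CPM in lymphomas, against 61.4, 78.4 and 61.6 CPM in thymus. Lymphomas 7, 12 and 35 were lowest, at 9.5, 10.8 and 11.4 CPM, and lymphomas 20 and 19 were highest, at 154 and 128 CPM, on either side of the thymus range. The log2 fold change was -0.16 ± 0.56 (SE, adjusted p = 0.859, edgeR), with -0.50 in limma-voom, -0.55 on log2(TPM + 0.1) and -0.02 without thymus 2. The list of 10 plasmacytoid dendritic cell genes, detected in full, summed to 119 to 1412 CPM in lymphomas and 1347 to 1456 CPM in thymus. Of the 10, 0 were higher and 2 lower, beside 15.4% of all genes in each direction, so the lower ones were near that share. Lymphoma 12, among the lowest in Tcf4, held the highest sum of the lymphomas, at 1412 CPM. The sum does not show which of the 10 genes carried it. The part of such cells in the Tcf4 level was not tested.

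Id3 fell in the lymphomas. It was 0.819 CPM at the lowest, 20 at the median and 96.4 at the highest, against 100, 120 and 98.2 CPM in thymus samples 1, 2 and 3. All 21 lymphomas lay below all 3 thymus samples, as they did for 7.92% of tested genes; the shares were 11.6% for the 11 mutated and 15.1% for the 10 unmutated lymphomas alone. The mean was 30.9 ± 26.6 CPM in lymphomas and 106 ± 11.8 CPM in thymus (SD, n = 21 and 3), a log2 fold change of -1.78 ± 0.68 (SE, adjusted p = 0.0497, edgeR). In bulk RNA, fewer cells that make a transcript and less of it per cell cannot be told apart. The call is at the edge of the threshold. It was lost with RLE factors (adjusted p = 0.0513), with upper-quartile factors (0.0531) and without the filter (0.0682), in a range of 0.00858 to 0.171 over all alternatives. It held when lymphoma 9, 13, 14, 16, 17, 20 or 34 was left out and was lost when any other library was, with log2 fold changes between -1.94 and -1.67 in every case.

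Id3 was lowest in unmutated lymphomas, though the sets overlapped. The mutated lymphomas ran from 7.58 over a median of 44.4 to 96.4 CPM and the unmutated ones from 0.819 over 14.4 to 33.2 CPM. Against thymus, the log2 fold change was -1.23 ± 0.66 for mutated lymphomas (SE, adjusted p = 0.171) and -2.81 ± 0.64 for unmutated ones (adjusted p = 0.0019), both in edgeR. The difference in the unmutated set passed in all 22 alternatives, with adjusted p up to 0.012. The difference between mutated and unmutated sets was 1.58 ± 0.49 on the log2 scale and missed the threshold (SE, adjusted p = 0.0589, edgeR; 0.0119 to 0.103 over the alternatives). It passed in DESeq2 (0.0119) and when lymphoma 4, 10, 15 or 32 was left out (0.0484, 0.0459, 0.0497 and 0.0387). Lymphomas 20 and 34 were lowest, at 0.819 and 1.34 CPM, with 21 counts in lymphoma 20.

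Id2, a factor of innate lymphoid and natural killer cells and of mature T cells, ran from 33.4 over 64.4 to 371 CPM in lymphomas, against 47, 61.9 and 47.2 CPM in thymus. Of 21 lymphomas, 12 were above the thymus range, 7 within it and 2 below. The difference of 0.78 ± 0.53 on the log2 scale did not pass (SE, adjusted p = 0.275, edgeR) and was 0.53 without lymphoma 7, which held the highest value, and 0.45 on log2(TPM + 1). Lymphoma 18 followed at 167 CPM. The list of 12 natural killer and innate lymphoid genes was detected in full and summed to 99.7 to 2932 CPM in lymphomas and 152 to 195 CPM in thymus. Of the 12, 1 was higher and 6 were lower, beside 15.4% of all genes in each direction. Lymphomas 18 and 7 were highest in that sum, at 2932 and 1893 CPM. Gzma and Rora carried it, at 2704 and 180 CPM in lymphoma 18 and at 888 and 911 CPM in lymphoma 7. Neither was among the listed genes of smallest p between lymphomas and thymus, which were Klrd1, Klrk1, Nkg7 and Gzmb. High Gzma was not confined to lymphomas 18 and 7. It was at 1706, 1382 and 1111 CPM in lymphomas 32, 14 and 35, where Id2 was at 61.7, 60.2 and 47.6 CPM. Il1rl1, an innate lymphoid receptor gene, was at 35.2 CPM in lymphoma 7 and at most 3.15 CPM in the other lymphomas. The part of these genes in the Id2 level was not tested.

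Id1, an Id factor induced by BMP and SMAD signals, had the widest spread of the tested genes. Its CPM was 0.143 at the lowest, 4.45 at the median and 44 at the highest, against 1.33, 2.57 and 1.86 CPM in thymus. The lowest value, in lymphoma 35, stood on 4 counts, so the fold spread is uncertain. Lymphomas lay on both sides of the thymus range, 13 above and 5 below. Lymphoma 20 was highest at 44 CPM, then lymphoma 4 at 22.8 and lymphoma 22 at 16.2 CPM. The log2 fold change of 1.99 ± 1.25 did not pass (SE, adjusted p = 0.234, edgeR) and was 0.81 in limma-voom and 0.85 on log2(TPM + 1). Lymphoma 20 was thus the highest of the 21 in Id1, Tcf3 and Tcf4 and the lowest in Id3.

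**Figure D2:**
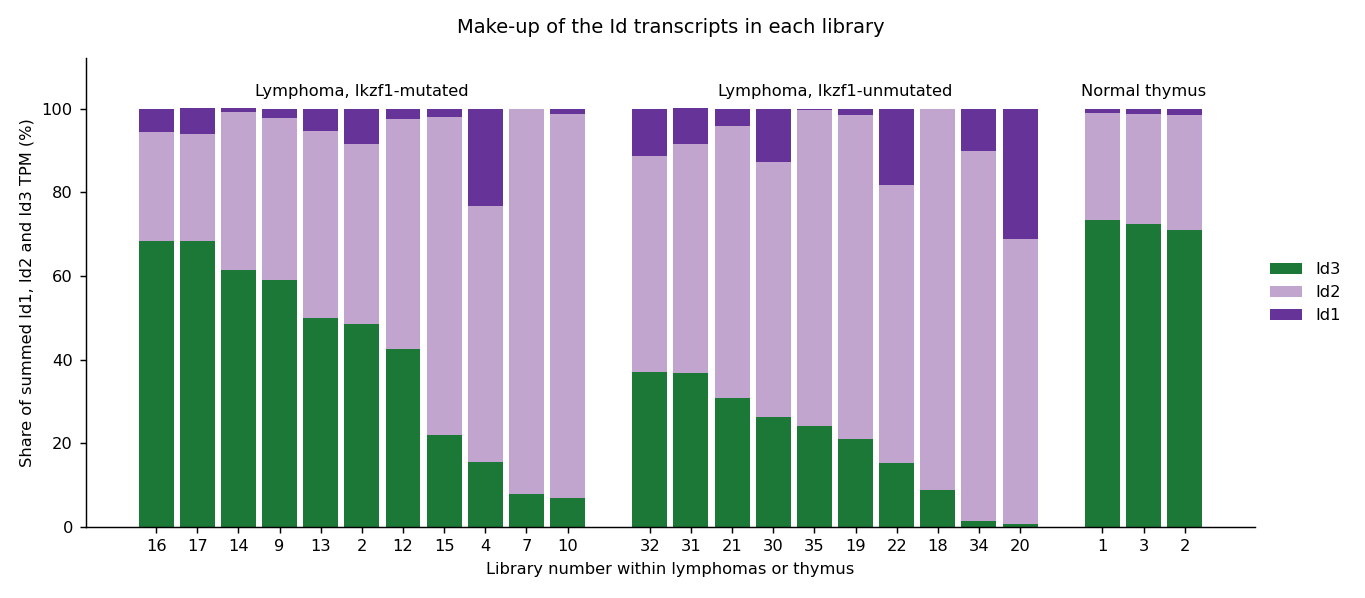
Share of Id3, Id2 and Id1 in the summed Id TPM of each library, in percent; each bar is 1 library, ordered by its Id3 share within the mutated lymphomas, the unmutated lymphomas and thymus. Id3 makes up 71 to 73.3% in thymus and 0.584 to 68.4% in lymphomas.

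Id2 led the Id transcripts by mean share in lymphomas, and Id3 led in thymus. Id3 took 31.1% of the summed Id TPM on average in lymphomas (0.584 to 68.4%) and 72.3% in thymus (71 to 73.3%), while Id2 took 61.5% in lymphomas and 26.4% in thymus. By set, Id3 took 41% in mutated lymphomas and 20.2% in unmutated ones, and Id2 took 53.8% and 69.9%. Id3 exceeded Id2 in 6 of 11 mutated lymphomas (2, 9, 13, 14, 16 and 17), whose set medians were 48.6% Id3 and 44.6% Id2, and in 0 of 10 unmutated ones. The share of Id3 was below thymus in all 21 lymphomas. Summed over the 3 Id genes the level was 276 ± 146 TPM in lymphomas and 405 ± 40.2 TPM in thymus, and summed over the 3 E proteins it was 460 ± 106 TPM in lymphomas and 390 ± 60.8 TPM in thymus (SD, n = 21 and 3). Id over E TPM was 0.509 at the median of lymphomas (0.3 to 3.03) and 0.893 to 1.41 in thymus. Lymphoma 7 held the highest ratio, at 3.03 with 92% of its Id TPM from Id2, and lymphoma 18 the next, at 1.12. The Tcf4 part of the E protein sum, 1.47% on average in lymphomas, depends on the length taken for Tcf4. These sums and shares are descriptions with no test.

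**Figure D3:**
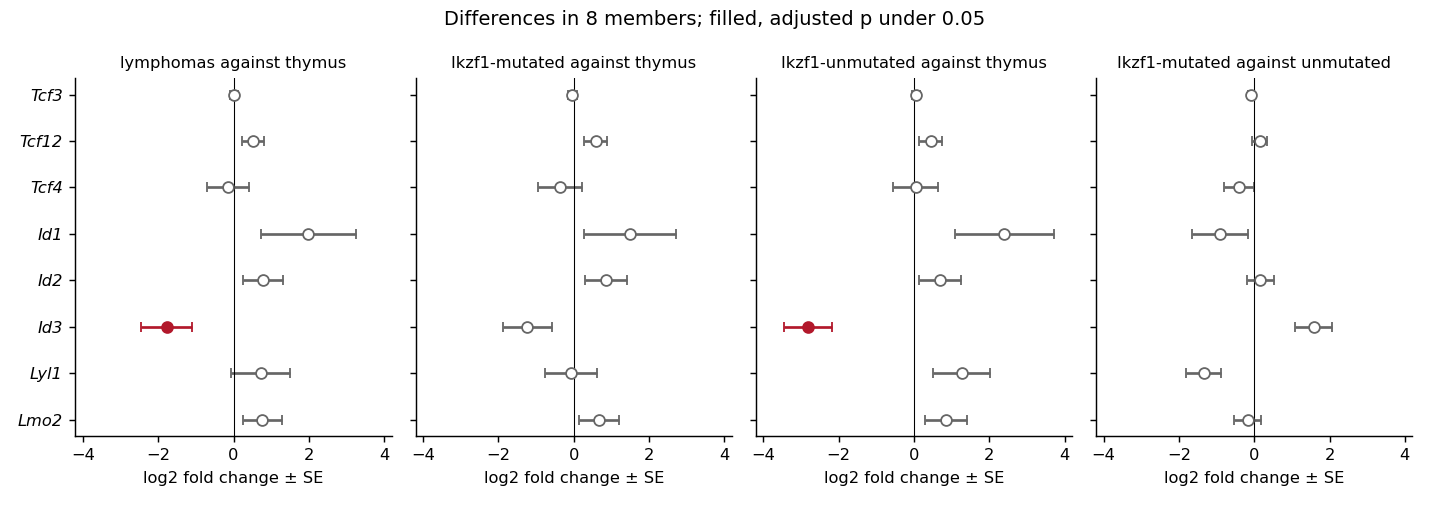
Log2 fold change with its SE for 8 genes in 4 comparisons, from edgeR; filled points have an adjusted p under 0.05. Id3 is filled in lymphomas against thymus and in unmutated lymphomas against thymus, at -1.78 and -2.81, and open in the other 2 panels.

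Lyl1 was 0.797 CPM at the lowest, 3.62 at the median and 19.2 at the highest of the lymphomas, against 2.76, 4.14 and 1.94 CPM in thymus. Lymphomas 35 and 22, both unmutated, stood apart at 19.2 and 16.9 CPM, and the next was lymphoma 18 at 7.11 CPM. The log2 fold change was 0.72 ± 0.79 (SE, adjusted p = 0.515, edgeR), and it was 0.24 in limma-voom and 0.18 on log2(TPM + 1). Mutated lymphomas averaged 2.8 ± 1.98 CPM and unmutated ones 7.1 ± 6.14 CPM (SD, n = 11 and 10), a difference of -1.34 ± 0.47 that missed the threshold (SE, adjusted p = 0.0889, edgeR; 0.041 to 0.182 over the alternatives). DESeq2 called it (0.041), and so did edgeR without lymphoma 31 (0.0477). Without lymphoma 35 it was -1.04.

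Lyl1 lies on chromosome 8 inside Nfix, a gene on the opposite strand, and 4 of its 1800 exon bases are shared. Nfix was at 96.6 CPM in lymphoma 35, the highest of the 21, and at 9.75 CPM in lymphoma 22, against 5.49 to 6.03 CPM in thymus. Lymphomas 9, 19 and 18 followed lymphoma 35 in Nfix, at 56.7, 31.7 and 27 CPM, with Lyl1 at 3.62, 4.88 and 7.11 CPM. The sources used here do not say whether counting used strand, so reads over those 4 shared bases cannot be told apart. The part of Nfix reads in the Lyl1 level was not tested.

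Lmo2 ran from 1.05 over 2.92 to 8.73 CPM in lymphomas, against 1.83, 3.16 and 1.79 CPM in thymus. Of 21 lymphomas, 10 were above the thymus range, 9 within it and 2 below. Lymphomas 16, 35, 18 and 19 were highest, at 8.73, 8.42, 7.84 and 6.37 CPM. The log2 fold change was 0.76 ± 0.52 (SE, adjusted p = 0.273, edgeR) and 0.42 on log2(TPM + 1), and the sets overlapped, at 3.6 ± 2.03 CPM in mutated and 4.07 ± 2.54 CPM in unmutated lymphomas (SD, n = 11 and 10).

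Of the 4 lymphomas highest in Lmo2, 3 were the highest in B-cell genes. The list of 8 B-cell genes was detected in full and summed to 3.67 to 246 CPM in lymphomas and 48.1 to 81 CPM in thymus. Of the 8 genes 0 passed the threshold between lymphomas and thymus, beside 30.8% of all genes. Lymphomas 35, 16 and 18 were highest in that sum, at 246, 213 and 133 CPM, and lymphoma 19 was at 38.9 CPM. Lmo2 is expressed in B cells. The part of B cells in these Lmo2 levels was not tested.

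**Figure D4:**
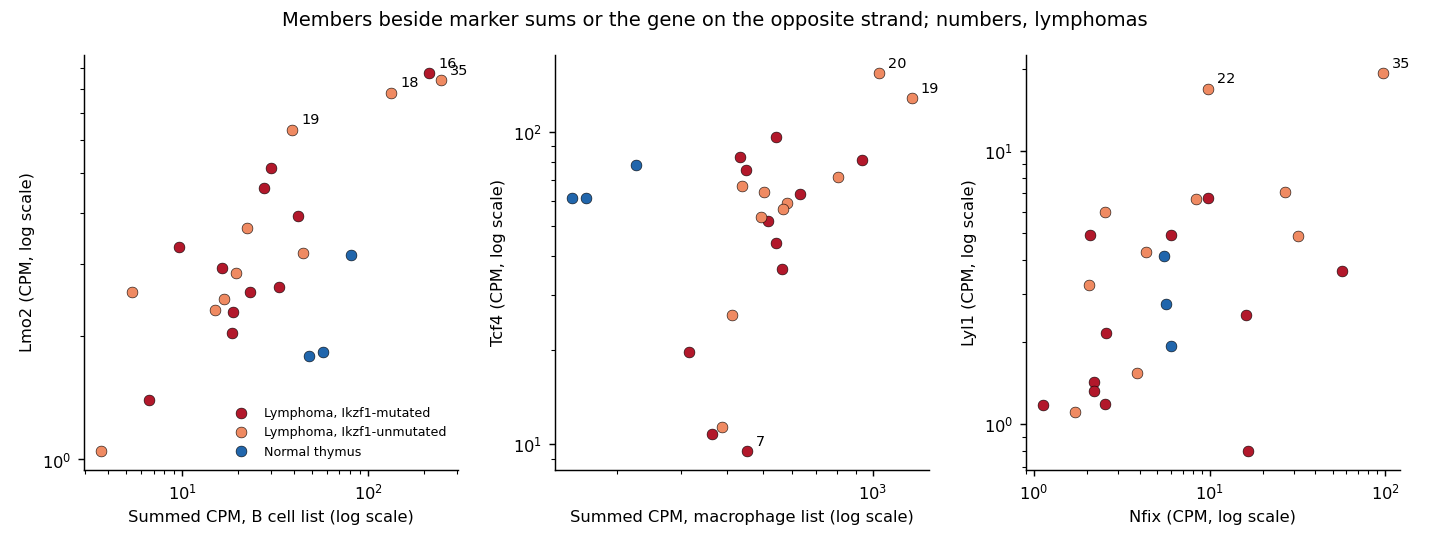
Lmo2 against the summed CPM of 8 B-cell genes, Tcf4 against that of 14 macrophage genes, and Lyl1 against Nfix, all on log axes; points are libraries coloured by set, and numbers name lymphomas. Lymphomas 35, 16 and 18 are at the upper right for Lmo2, lymphomas 19 and 20 for Tcf4 and lymphoma 35 for Lyl1.

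Tal1 and Hhex were close to absent by counts. Tal1 had 79 counts over the 21 lymphomas and 12 over the 3 thymus samples; 6 lymphomas had 0, and the highest were lymphoma 17 with 21 counts (0.675 CPM) and lymphoma 18 with 14. Hhex had 22 counts over the lymphomas, 10 of which had 0 and none over 4, and 9 counts over thymus. With no filter, log2 fold changes were 0.02 ± 0.97 for Tal1 (SE, adjusted p = 0.992, edgeR) and -1.22 ± 0.86 for Hhex (adjusted p = 0.325). No difference was detectable at this depth. Lmo1, a close relative of Lmo2 and a leukaemia oncogene itself, had 116 counts in lymphoma 2 (6.38 CPM), 0 to 4 in the other lymphomas and 6, 1 and 3 in thymus. Lmo1 was singled out after its values were seen and did not pass the filter.

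Other genes of the pathway were read from lists. Of 22 thymocyte genes that E proteins activate, 21 were tested, 1 was higher and 12 were lower in lymphomas, beside 15.4% of all tested genes in each direction, with a median log2 fold change of -1.13 against 0.07 over all genes. Socs1, a cytokine signalling inhibitor, was at 38.1 ± 24.3 CPM in lymphomas and 158 ± 17.1 CPM in thymus, a change of -2.05 (adjusted p = 0.000134, edgeR). Rag1 averaged 786 ± 501 CPM in lymphomas and 2841 ± 762 CPM in thymus, a change of -1.85 that just passed (SD, n = 21 and 3, adjusted p = 0.0482, edgeR), and Rag2 fell by 3.55 on the log2 scale (adjusted p = 0.00497, edgeR). Vpreb1, the surrogate light chain gene, fell by 2.62, Aqp11 by 1.13 and Cd3e by 1.00. Hes1, which is also a Notch target, was the gene that rose, to 64.7 ± 28.6 CPM in lymphomas against 7.78 ± 1.55 CPM in thymus, a change of 3.05 (adjusted p = 0.00471, edgeR). Ptcra was at 114 ± 89.3 CPM in lymphomas and 52.5 ± 5.81 CPM in thymus and did not pass (adjusted p = 0.55, edgeR). Cd3e and Cd5 of this list are also among the 12 thymocyte identity genes, whose sum was lower in every lymphoma, and of which 7 were lower; their part in the list's falls was not tested.

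Among 18 regulators of Id genes, 16 were tested, and 0 were higher and 3 lower in lymphomas, beside 15.4% of all genes in each direction: Smad7, an inhibitor of BMP and TGF-beta signals, by 2.36 below thymus on the log2 scale, Stat5b by 0.73 and Smad4 by 0.33. Against thymus, 1 of the 16 was higher and 2 were lower in the mutated set, beside 13.1% and 12.9% of all genes, so the lower ones were near the share of all genes. In the unmutated set 0 were higher and 6 lower, beside 18% and 17.3% of all genes. Between the sets, 5 of the 16 were higher in mutated lymphomas and 0 lower, beside 2.43% of all tested genes that were higher. Egr1, an immediate-early factor of TCR signalling, averaged 92.8 ± 57.8 CPM in mutated and 21.9 ± 18.1 CPM in unmutated lymphomas (SD, n = 11 and 10), a difference of 2.09 (adjusted p = 0.0287, edgeR), and thymus was at 208 ± 31 CPM. Egr3 differed by 2.70 (adjusted p = 0.0137), Stat5b by 0.54, Tgfbr2 by 0.90 and Skil by 0.77, all in edgeR. Egr2 did not pass the filter, at 23 counts over the lymphomas and 46 over thymus.

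Of 16 partners of the Tal-Lmo complex, 12 were tested, 1 was higher and 2 were lower in lymphomas, a count near the 15.4% of all genes in each direction. Ssbp4, a single-stranded DNA-binding partner of Ldb1, rose by 0.62, while its relative Ssbp2 fell by 1.47 and Myb by 0.85 on the log2 scale. Ldb1 itself, which holds the complex together, was at 356 ± 126 CPM in lymphomas and 534 ± 70.1 CPM in thymus (SD, n = 21 and 3) and did not pass (adjusted p = 0.0551, edgeR). Runx1 was the partner that differed between the sets, 1 of the 12 tested, beside 2.43% of all genes higher in mutated lymphomas. It was at 200 ± 42.2 CPM in mutated and 130 ± 30.4 CPM in unmutated lymphomas, a difference of 0.62 (adjusted p = 0.0151, edgeR).

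Of 24 genes linked to Lmo2, Lyl1 or Tal1 in leukaemia and progenitors, 23 were in the table and 17 tested, with 2 higher and 3 lower, again near the 15.4% of all genes in each direction. Etv6 rose by 0.93 on the log2 scale, as did Csf1r by 1.29, a gene that the macrophage list also holds. Hoxa7 was down to 29 counts over the lymphomas, against 287 over thymus, and Mycn and Mpo fell too. Kit, a receptor of early progenitors, differed between the sets: mutated lymphomas averaged 3.21 ± 2.62 CPM and unmutated ones 74.6 ± 75.5 CPM (SD, n = 11 and 10), a difference of -4.55 (adjusted p = 0.0101, edgeR), with thymus at 7.78 ± 1.24 CPM. Trib2 was higher in the mutated set by 1.15 (adjusted p = 0.0199, edgeR). Between the sets 1 of the 17 was higher and 1 lower in mutated lymphomas, beside 2.43% and 2.95% of all genes. Of 13 other helix-loop-helix genes 6 were tested, with 2 higher and 0 lower, beside 15.4% of all genes in each direction. Ascl2 and Hes1 rose, by 2.97 and 3.05. Id4 had 7 counts over the lymphomas and 7 over thymus. Of 11 genes of E-protein turnover and corepressors 9 were tested, with 2 higher and 1 lower, near the 15.4% of all genes in each direction. Cops3 and Huwe1, a ubiquitin ligase, rose by 0.37 and 0.75, and the coactivator gene Crebbp fell by 0.98.

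Over the 21 lymphomas 25 relations were computed on log2(CPM + 1), with permutation tests of 100000 resamples. Id3 and Egr1 moved together most closely, with Pearson r = 0.85 (p = 2e-05, the smallest the resamples give; adjusted p = 0.0005) and Spearman rho = 0.74 (p = 0.00026; adjusted p = 0.0065). Without lymphomas 20 and 34, the 2 farthest from the median of Id3, r was 0.72. Within sets r was 0.76 over 11 mutated and 0.78 over 10 unmutated lymphomas. Genes most like Id3 over the lymphomas, by r among 12505 genes, were Rasgrp1 (0.86), Nr4a1 (0.85) and Cd28 (0.85). In lymphomas 20 and 34, the lowest in Id3, Egr1 was at 3 and 1.39 CPM and Nr4a1 at 0.624 and 0.205 CPM. Cd28 was at 0.117 and 0.462 CPM there and Rasgrp1 at 8.19 and 13 CPM. Rasgrp1, Nr4a1 and Cd28 were picked for their likeness to Id3 over these same lymphomas, so their low values there follow from that choice. Egr1, Nr4a1, Cd28 and Rasgrp1 have roles in or downstream of TCR signalling. Thymus held 175 to 236 CPM of Egr1 and 626 to 787 CPM of Rasgrp1.

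**Figure D5:**
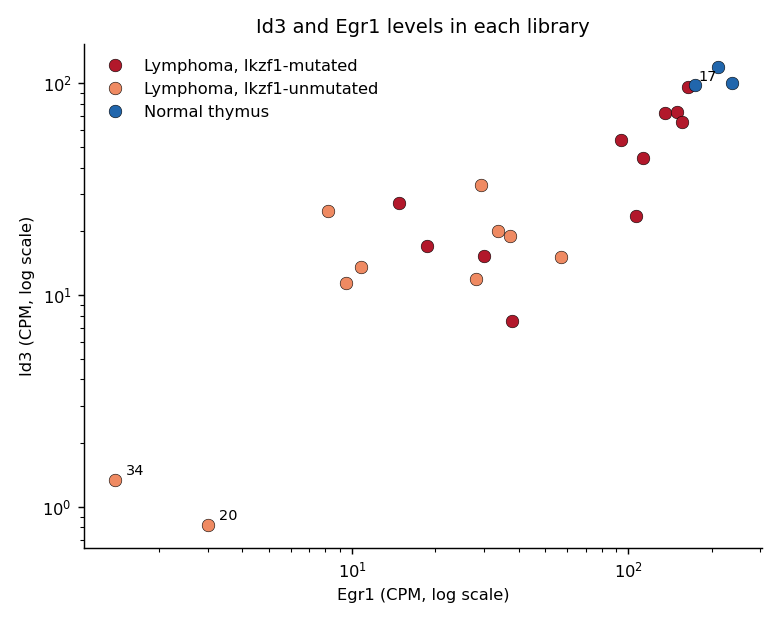
Id3 against Egr1 in each library, in CPM on log axes, with lymphomas 17, 20 and 34 numbered. Id3 and Egr1 are both lowest in lymphomas 20 and 34, and thymus lies at the upper right beside lymphoma 17 at 96.4 CPM of Id3.

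Id2 and Id3 ran against each other, with r = -0.47 (permutation p = 0.0464, adjusted p = 0.145) and rho = -0.56 (p = 0.00874, adjusted p = 0.0546), neither past the threshold. Without lymphomas 7 and 18 r was -0.70 (adjusted p = 0.00883). Tcf12 with Ptcra gave r = 0.62 (permutation p = 0.0079, adjusted p = 0.044) and rho = 0.37 (p = 0.0993, adjusted p = 0.27), and without lymphomas 35 and 7 r was 0.33, so the relation rests on those samples. Lyl1 with Lmo2 gave r = 0.46 (permutation p = 0.0384, adjusted p = 0.145) and rho = 0.36 (p = 0.108, adjusted p = 0.27). Tcf3 with Tcf12 gave r = 0.23 (permutation p = 0.317, adjusted p = 0.466), at 0.67 within 11 mutated and -0.01 within 10 unmutated lymphomas, and 0.40 on log2(TPM + 1). Tcf3 with Rag1 gave r = 0.12 (permutation p = 0.577, adjusted p = 0.687), at 0.79 within mutated and -0.14 within unmutated lymphomas, and 0.38 on log2(TPM + 1). The difference between the sets was not tested.

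Tcf4 followed the macrophage list. With its summed CPM, r was 0.70 (permutation p = 6e-05, adjusted p = 0.00075) and rho 0.61 (p = 0.004, adjusted p = 0.0377), and r was 0.71 without lymphomas 7 and 12. The rank correlation lost its call there (rho = 0.57, adjusted p = 0.0675) and on log2(TPM + 1) (rho = 0.54, adjusted p = 0.101). All 14 macrophage genes were detected, and 12 were higher and 0 lower in lymphomas, beside 15.4% of all genes in each direction. The sum was 314 to 1279 CPM in lymphomas and 151 to 226 CPM in thymus. Lymphomas 19 and 20, the highest in Tcf4, were the highest in the sum, at 1279 and 1042 CPM. Apoe alone gave 573 and 387 CPM of the sum in these lymphomas, so the relation leans on that gene. The relation without Apoe was not computed. Macrophage RNA as a source of Tcf4 was not tested. In other lists of cell types, 8 of 10 fibroblast genes were higher, 8 of 9 tested thymic epithelial genes were lower and 7 of 8 neutrophil genes were lower in lymphomas. Of 9 tested erythroid genes 2 were higher and 0 lower. Of 2 tested megakaryocyte genes 1 was higher and 1 lower, and 0 of 7 dendritic genes passed. The share of all genes was 15.4% in each direction. Lmo2 with the macrophage sum gave r = 0.42 (permutation p = 0.0604, adjusted p = 0.168) and rho = 0.49 (p = 0.0263, adjusted p = 0.106), and r was 0.68 without lymphomas 16 and 35 (adjusted p = 0.0132). With the endothelial sum, of which 5 of 12 genes were tested and Cldn5 was at 0 throughout, Tcf4 gave r = -0.63 (permutation p = 0.004, adjusted p = 0.0333) and rho = -0.61 (p = 0.00452, adjusted p = 0.0377), and Id1 gave r = -0.55 (permutation p = 0.0088, adjusted p = 0.044) and rho = -0.48 (p = 0.0296, adjusted p = 0.106). Without the 2 lymphomas farthest in each gene, r was -0.40 for Tcf4 (adjusted p = 0.302), so that call rests on those samples. On log2(TPM + 1) r for Tcf4 was -0.58, and -0.54 without the 2 farthest there, lymphomas 7 and 35. Within sets it was -0.785 over 11 mutated and -0.376 over 10 unmutated lymphomas on log2(CPM + 1). For Id1, r without the 2 farthest was -0.48 (permutation p = 0.0407, adjusted p = 0.17), a lost call with r of a similar size. Within sets r for Id1 was -0.64 over 11 mutated and -0.48 over 10 unmutated lymphomas. Of the other 12505 genes, Hivep3 (0.88), Apoe (0.84) and Pltp (0.83) were most like Tcf4; Apoe is in the macrophage list.

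For the remaining genes the closest were Lat (0.76), Ptk2 (0.73) and Lexm (0.73) for Tcf3, Ankrd28 (0.85), Dennd6a (0.84) and Mtmr2 (0.83) for Tcf12, and Mettl6 (0.79), Cipc (0.78) and Ltv1 (0.77) for Id1. Ctsf (0.80), Cxcl12 (0.79) and Tex2 (0.79) were closest to Id2, and Slc12a5 (0.81), Cd209a (0.79) and Rps19bp1 (0.78) to Lyl1. Lmo2 had the highest values of all, with Ell2 (0.95), St14 (0.93) and Cd22 (0.92), a B-cell receptor co-receptor gene. Ell2 and St14 were low, at 0.279 to 4.44 and 0.0655 to 1.96 CPM in lymphomas. Lmo2, Ell2, St14 and Cd22 were all highest in lymphomas 16, 18 and 35, and r without these was not computed. Each value in brackets is a Pearson r over the same 21 libraries, as a description.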

How the data were processed

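The submitters' processing notes list edgeR and SAMtools, HTSeq 0.6.1, HISAT2 2.0.1 and cutadapt 1.9.1, and the build GRCm38.p6. Settings and strand were not given in the sources used here. Raw counts, whole numbers by gene symbol, were deposited by the authors for all 24 libraries, together with a TPM table. Column names of 2 further deposited count tables, from which the authors had removed low genes (12194 and 12109 left), gave the Ikzf1 sets. The labels give 1 batch date for all samples.

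Tests on counts used edgeR 4.0.16 under R 4.3.3, with TMM, filterByExpr (13121 genes kept), glmQLFit and glmQLFTest, and p-values adjusted by Benjamini-Hochberg, with a threshold of 0.05. Lymphomas against thymus used a model of 2 groups and set comparisons a model of 3 groups, so comparisons with thymus share its samples. SE is the fold change over the root of F. Alternatives used DESeq2 1.42.0, limma 3.58.1 and other filters, scalings and left-out libraries. No pair of libraries agreed within sampling noise: chi-square per degree of freedom was at least 10.1. Gene positions are from GENCODE M21 on GRCm38.

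The genes and lists were chosen with earlier results of these data known. Named were all 10 genes, up to 4 genes of each list by smallest p, and the 3 genes closest to each gene of at least 1 CPM; further genes of the lists and library values were named after they were seen.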

Additional observations from a re-analysis of the deposited data

Results flagged for a closer look

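Id1 in lymphoma 20 stood far from the other unmutated lymphomas, at 43.96 CPM against 0.143 to 16.2 CPM in the other 9. Its gap to the nearest was 0.633 of the whole range, above the limit of 0.466 for 10 samples. The thymus samples held 1.33 to 2.57 CPM. Of 10 groups of values checked in this way, the 10 genes each in the unmutated lymphomas, 1 was marked. Mutated lymphomas were not checked. Among them Id2 was at 371 CPM in lymphoma 7, with the next value at 134 CPM in lymphoma 10. Chance marks about 1 in 20 where values are normally distributed. The check used CPM without logs, in which unmutated lymphomas were skewed for Id1 (mean 10.1, median 7.05 CPM), so that rate need not hold here.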

How the results depend on the processing

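Of 280 values of single genes under other settings, 261 kept their direction and side of the threshold, as did 542 of 576 with 1 library left out. Among the 8 genes, the count past the threshold for lymphomas against thymus was 0 with RLE factors, with upper-quartile factors and with no filter, and was 0 to 1 with a library left out. It was 1 in limma-voom for the mutated set against thymus (Id3, -1.61, adjusted p = 0.0373). Between the sets DESeq2 called 2 of the 8 and 1269 genes in all, a fit of lymphomas only called 388 genes, and leaving out a library gave 0 to 1 of the 8. Over all genes, leaving out a library gave 1929 to 4435 calls for lymphomas, 1441 to 3904 for the mutated set and 2856 to 4895 for unmutated lymphomas, against thymus in each case and fewest without thymus 2, and 301 to 1221 between the sets, fewest without lymphoma 34 and most without lymphoma 31. Signs turned for values near 0. For Tcf3 these were -0.0025 (limma-voom), -0.083 and -0.083 (TPM with pseudocounts of 1 and 0.1) for lymphomas, 0.0061 (no filter) for the mutated set and -0.096 and -0.096 (TPM) for unmutated lymphomas against thymus, with 0.025 and 0.025 (TPM) between the sets. Tcf4 in the unmutated set against thymus was -0.28 in limma-voom and -0.28 and -0.37 in TPM. Between the sets Id2 was -0.082 in limma-voom and Lmo2 0.0099 in TPM with a pseudocount of 0.1. With a library left out, Tcf3 ran from -0.014 to 0.058 for lymphomas and from -0.057 to 0.015 for the mutated set, Lyl1 from -0.29 to 0.27 for the mutated set, and Tcf4 from -0.16 to 0.20 for the unmutated set, all against thymus, and between the sets Id2 ran from -0.34 to 0.32 and Lmo2 from -0.40 to 0.0016. Pearson r turned to -0.0039 for Lyl1 with the endothelial sum in TPM and, without the 2 farthest lymphomas, to -0.090 for Tcf3 with Tcf12, 0.071 for Tcf3 with Id3, -0.17 for Tcf3 with Rag1, -0.090 for Id1 with the macrophage sum and -0.24 for Id2 with the endothelial sum. The cause was not tested for any of these. Depth limits Tal1 and Hhex. No paired analysis was possible because the groups share fewer than 2 replicate numbers.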
